A study of Mus musculus with 2 samples.

Results

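The Hoxa genes were followed across the stromal cell types of the mouse gut: 9 genes of the cluster (Hoxa2, Hoxa3, Hoxa4, Hoxa5, Hoxa7, Hoxa9, Hoxa10, Hoxa11 and Hoxa13), chosen by name, of 18545 genes listed in either deposited count table. All 9 were listed for the colon, and 6 of them (Hoxa2 to Hoxa9) for the small intestine. A gene that a table does not list was not taken as 0, so Hoxa10, Hoxa11 and Hoxa13 have colon values only. The study had 2 groups, the colon and the small intestine of healthy, untreated mice, with 1 droplet single-cell library each. Per the labels, live cells negative for CD45 and CD326 (EpCAM), which leaves out immune and epithelial cells, were sorted after 60 minutes (colon) or 45 minutes (small intestine) of enzyme digestion, and about 16000 cells per library were loaded. The number, strain, sex and age of the animals are not given in the labels.

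Hox genes encode homeodomain transcription factors that set the identity of tissues along the head-to-tail axis. They lie in clusters in which gene order matches the order of expression along the body, so that genes at the Hoxa2 end are used towards the head and genes at the Hoxa13 end towards the tail, a property called collinearity. In the gut the mesenchyme keeps such a positional code into adult life, and the 5′ genes, Hoxa13 above all, are known as markers of the hindgut.

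On the minus strand of chromosome 6 (mm10, GENCODE gene models), the members spanned 98.5 kb from Hoxa2 (start 52162417) to Hoxa13 (end 52260880). The Hoxa3 model (52169062 to 52213336) runs across Hoxa4 and Hoxa5 on the same strand, so counts of these 3 genes could be shared or lost between them, and their values carry that uncertainty. Hoxa11 (52242106 to 52245810) overlaps the antisense gene Hoxa11os. On the opposite strand, Hoxaas3 overlaps Hoxa3, Hoxa4, Hoxa5 and Hoxa7, and Hoxaas2 overlaps Hoxa3. Whether counting used the strand is not given in the sources used here, so the values of all these members carry that uncertainty. Only 1245 bp separated the models of Hoxa7 and Hoxa9, and 107 bp those of Hoxa9 and Hoxa10. In fibroblasts, as described below, Hoxa2 to Hoxa5 were lower in the colon, Hoxa7 had a ratio near 0 and Hoxa9 was higher. Hoxa10 has no small intestinal value, so no change between tissues can be placed between Hoxa9 and Hoxa10.

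The 250 bases before the start site are shown for the nearest members on both sides of Hoxa7 that differed between tissues (Hoxa5 and Hoxa9) and for 2 members listed for the colon alone (Hoxa10 and Hoxa13). They come from RefSeq (GRCm38.p6), are written 5′ to 3′ on the gene's strand, and lie at chr6:52204588-52204837 (Hoxa5), chr6:52227371-52227620 (Hoxa9), chr6:52234940-52235189 (Hoxa10, the nearer of its 2 start sites to Hoxa9) and chr6:52260881-52261130 (Hoxa13), all on the minus strand. Capitals mark a match to a searched motif.
Hoxa5: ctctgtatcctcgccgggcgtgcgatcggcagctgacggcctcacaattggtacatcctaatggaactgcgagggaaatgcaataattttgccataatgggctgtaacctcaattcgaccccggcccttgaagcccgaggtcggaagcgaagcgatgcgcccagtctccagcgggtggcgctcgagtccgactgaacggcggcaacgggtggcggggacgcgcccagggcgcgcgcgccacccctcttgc
Hoxa9: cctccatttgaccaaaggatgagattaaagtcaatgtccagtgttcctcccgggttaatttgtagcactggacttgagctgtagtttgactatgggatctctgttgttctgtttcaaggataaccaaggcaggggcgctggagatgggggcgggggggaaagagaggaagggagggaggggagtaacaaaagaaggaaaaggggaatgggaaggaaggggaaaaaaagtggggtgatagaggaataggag
Hoxa10: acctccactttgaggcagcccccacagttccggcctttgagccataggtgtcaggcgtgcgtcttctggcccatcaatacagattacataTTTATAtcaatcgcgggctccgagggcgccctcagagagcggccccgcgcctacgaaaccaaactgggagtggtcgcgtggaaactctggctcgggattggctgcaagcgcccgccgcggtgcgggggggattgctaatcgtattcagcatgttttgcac
Hoxa13: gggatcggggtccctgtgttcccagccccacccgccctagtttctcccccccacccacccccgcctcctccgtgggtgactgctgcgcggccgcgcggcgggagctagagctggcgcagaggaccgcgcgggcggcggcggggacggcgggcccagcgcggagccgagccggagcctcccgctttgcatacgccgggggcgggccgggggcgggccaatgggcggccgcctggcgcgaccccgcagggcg
RefSeq promoters matched 8 of the 9 members, with 9 start sites. The sequences differed in CpG content: the Hoxa9 window held 3 CpG and the Hoxa13 window 35, against a median of 6 over all 32851 promoters. The Hoxa5 window held 28. On both strands, 4 motifs were searched: TTTATG (a site of the posterior Hox class, in 10.8% of all promoters), TGATTNAT (a joint Hox and Pbx site, 2.82%), AGGTCA (the core bound by retinoic acid and related receptors, 14.0%) and TATAAA (the TATA box, 12.4%). Hoxa7 had 2 TTTATG matches, at 236 and 173 bases before its start site, Hoxa2 had TGATTNAT at 111, and Hoxa10 had TATAAA at 160. A match is a description of letters, and the other 6 windows held none.

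The colon library held 6018 cells and 40684070 UMIs (unique molecular identifiers, each marking 1 captured RNA molecule; median 6598 per cell), and the small intestinal library 9359 cells and 58134526 UMIs (median 5943). The 6 labels compared, colon cells before small intestinal cells, were CD81- FBs (fibroblasts; 3631 and 2823), trophocytes (CD81+ fibroblasts; 875 and 1913), SEMFs (PDGFRa-high; 1105 and 1109), LECs (lymphatic endothelium; 217 and 2498), BECs (blood endothelium; 53 and 524) and SMCs (smooth muscle; 125 and 468). Of the markers fixed for each label, 6 of 6 were highest in LECs and 6 of 6 in SMCs in both libraries, and 7 of 8 in SEMFs in both. The counts were 7 of 7 in colon and 5 of 7 in small intestinal BECs, 5 of 7 in trophocytes in both libraries, 3 of 5 in colon CD81- FBs and 1 of 5 in those of the small intestine, where cells labelled SMCs had nearly the same summed level of those markers (10223.5 against 10421.5 CPM, the UMIs of a gene scaled to a total of 1000000 UMIs in the type). The fibroblast genes Dcn, Col1a1, Col1a2 and Lum stood in colon LECs at 9.47% to 10.6% and in colon BECs at 16.8% to 25.6% of their fibroblast level, against 2.36% to 2.67% and 1.15% to 1.32% in the small intestine. The colon fibroblasts also included 2541 cells with Xist and no Y-linked UMI and 1637 with the reverse, and 21 cell barcodes occurred in both libraries. With 1 library per tissue and cells that are not replicates, no p-value was computed. Every interval is a 95% interval for counting error only and leaves out differences between animals and libraries.

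Over the 6 members listed in both tables, Hoxa transcripts summed to 62.0 CPM (59.5 to 64.5) in colon fibroblasts and 73.5 CPM (70.9 to 76.1) in small intestinal fibroblasts. With the 3 members listed for the colon alone, the colon sum was 199 CPM. The shares of cells and the sums by label that follow cover 9 genes in the colon and 6 in the small intestine. At least 1 member was detected in 67.0% of the 5611 colon fibroblasts and in 34.1% of the 5845 small intestinal fibroblasts. By label the summed colon level ran from 113 CPM in trophocytes to 286 CPM in SMCs, and the small intestinal level from 36.9 CPM in trophocytes to 131 CPM in LECs. Trophocytes were thus lowest in both libraries. UMIs of this kit are read at the 3′ end and are not scaled by transcript length, and genes can be captured with different efficiency. Levels are therefore compared below between cell types, not between genes. The shares of Hoxa UMIs and the centre given below do weigh genes against one another and carry that limit.

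**Figure D1:**
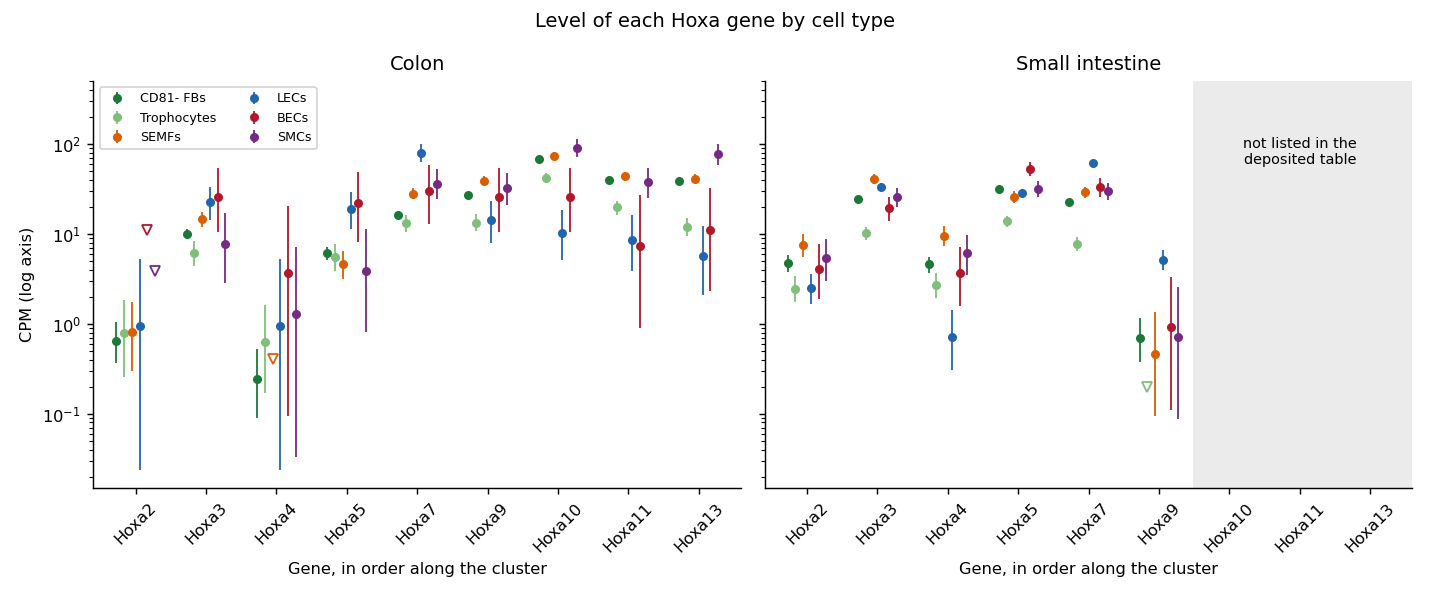
Level of each Hoxa gene (CPM on a log axis) in order along the cluster, for the 6 cell types of the colon (left) and the small intestine (right); bars are exact Poisson 95% intervals and open triangles mark 0 UMIs, drawn at the floor of 3 counts. At Hoxa9, fibroblast and smooth muscle points lie lower in the small intestine than in the colon, and LECs are the highest small intestinal point. At Hoxa10 to Hoxa13 in the colon, trophocytes lie below the other fibroblasts and SMCs.

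At the 3′ end of the cluster, 4 members were lower in colon than in small intestinal fibroblasts. Hoxa2, which patterns the hindbrain and pharyngeal arches, had 0.701 CPM in the colon (27 UMIs) and 4.34 CPM in the small intestine (181 UMIs). Its log2 ratio of colon to small intestine was -2.63 (-3.27 to -2.04). Hoxa3, needed for the thymus and parathyroid, had 10.2 CPM (394 UMIs) and 21.7 CPM (906 UMIs), a log2 ratio of -1.09 (-1.26 to -0.91). This was the smallest of the 4 differences. Hoxa4, a patterning gene of the neck and trunk, had 0.260 CPM (10 UMIs in 10 of 5611 cells) and 4.68 CPM (195 UMIs), a log2 ratio of -4.17 (-5.25 to -3.26). Hoxa5, which is needed for the lung and airways, had 5.69 CPM (219 UMIs) and 24.1 CPM (1006 UMIs), a log2 ratio of -2.08 (-2.30 to -1.87). The difference was thus not in step with gene order: Hoxa4 differed most and its neighbour Hoxa3 least.

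The order of the cell types differed between these 4 genes. For Hoxa3 the colon order was BECs (26.0 CPM), LECs (22.5), SEMFs (14.7), CD81- FBs (9.96), SMCs (7.77) and trophocytes (6.12), and of the neighbours SEMFs and CD81- FBs alone differed beyond their interval. The small intestinal order for Hoxa3 was SEMFs (40.9 CPM), LECs (33.3), SMCs (25.7), CD81- FBs (24.1), BECs (19.2) and trophocytes (10.2), with clear steps after SEMFs, LECs and BECs. For Hoxa5 the colon order was BECs (22.2 CPM), LECs (18.8), CD81- FBs (6.07), trophocytes (5.497), SEMFs (4.57) and SMCs (3.88), with the one clear step after LECs. Endothelium thus led both genes in the colon, on 6 to 24 UMIs a label. Hoxa2 was at most 0.939 CPM in every colon label. Colon BECs and SMCs had 0 UMIs, with intervals that reach 13.7 and 4.78 CPM. In the small intestine Hoxa2 ran from 2.46 CPM (trophocytes) to 7.51 CPM (SEMFs). Hoxa4 had 13 UMIs in all 6018 colon cells. Among small intestinal labels Hoxa4 ran from 9.51 CPM in SEMFs to 0.714 CPM in LECs, and LECs alone were set off from the next label, by 1.93 (0.82 to 3.24) on the log2 scale.

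Hoxa7, a patterning gene of the trunk skeleton, stood between both behaviours. Pooled fibroblasts had 18.0 CPM in the colon (692 UMIs) and 18.2 CPM in the small intestine (760 UMIs), a log2 ratio of -0.02 (-0.17 to 0.13). Relative to the median gene, whose own ratio was -0.17, it was 0.15 (0.00 to 0.31), so its direction turns with the scaling. Within the labels it went both ways: CD81- FBs had a ratio of -0.47 (-0.67 to -0.28), trophocytes of 0.74 (0.32 to 1.16) and SEMFs of -0.05 (-0.34 to 0.24). The difference between these labels was not tested.

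At Hoxa9, the last member listed for both tissues, the direction was the opposite. Hoxa9, best known as a regulator of blood progenitors, had 27.1 CPM in colon fibroblasts (1044 UMIs in 797 cells) and 0.408 CPM in small intestinal fibroblasts (17 UMIs in 13 cells), 66.5 times as much in the colon (log2 6.06, 5.37 to 6.84). Counting a change of at least 2-fold with an interval without 0, 4 of the 6 shared members were lower in colon fibroblasts and 1 was higher. Hoxa3 was under 2-fold relative to the median gene (-0.91) and with Y-linked colon cells only (-0.84), which leaves 3 lower. Over all 15984 genes with at least 10 UMIs in that comparison, 9.82% were called lower and 9.61% higher.

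Hoxa9 was present in every colon label, with 38.9 CPM in SEMFs, 32.4 in SMCs, 27.1 in CD81- FBs, 26.0 in BECs, 14.1 in LECs and 13.3 in trophocytes, and no neighbours in that order differed beyond their interval. Its small intestinal level was 5.18 CPM in LECs, 0.912 in BECs, 0.713 in SMCs, 0.695 in CD81- FBs and 0.460 in SEMFs. Small intestinal trophocytes had 0 UMIs, with an interval that reaches 0.245 CPM. In the small intestine LECs alone stood above their neighbour, by 2.50 (0.59 to 5.58) on the log2 scale.

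The last 3 members were listed for the colon alone. Hoxa10, a patterning gene of the lumbar region and the reproductive tract, had 65.0 CPM in colon fibroblasts (62.5 to 67.6) and was found in 34.0% of them (32.7 to 35.2), or in 17.9% after each cell was thinned to 3000 UMIs. In LECs 4.15% of cells had a UMI, at a median of 4545 UMIs per cell against 6707 in fibroblasts. Hoxa11, which acts in the limb, kidney and reproductive tract, had 37.3 CPM (35.4 to 39.3) and was found in 20.9% of cells (thinned 9.66%). Its antisense partner Hoxa11os, also listed for the colon alone, had 50.5 CPM in the same cells, and like Hoxa11 it was lowest in trophocytes among the fibroblasts (26.1 CPM). Hoxa13, needed for the hindgut, the genital tract and the digits, had 34.7 CPM (32.9 to 36.6) and was found in 18.8% of cells (thinned 9.83%). For none of the 3 can a ratio to the small intestine be formed.

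The colon's position along the cluster could be followed as a centre, the mean of the gene numbers (2 for Hoxa2 to 13 for Hoxa13) weighted by UMIs. It was 9.77 (9.71 to 9.82) in colon fibroblasts, where 82.5% of Hoxa UMIs came from Hoxa9 to Hoxa13. Over the 6 shared members alone the colon centre was 6.96 (6.87 to 7.05), and that of small intestinal fibroblasts was 4.69 (4.63 to 4.75). Hoxa9 held 43.8% of the shared members' UMIs in the former and 0.555% in the latter. Among colon labels SMCs had the highest centre (10.2), followed by CD81- FBs (9.87), SEMFs (9.64) and trophocytes (9.31). The colon LECs and BECs stood apart from these, with 6.95 (6.58 to 7.31; 172 UMIs) and 7.44 (6.52 to 8.36; 41 UMIs). In the small intestine LECs had the highest centre, 5.52 (5.42 to 5.61), followed by BECs, 5.13 (4.94 to 5.32), and SMCs, 4.88 (4.69 to 5.08), whose intervals overlap, then CD81- FBs (4.78), trophocytes and SEMFs (4.52).

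**Figure D2:**
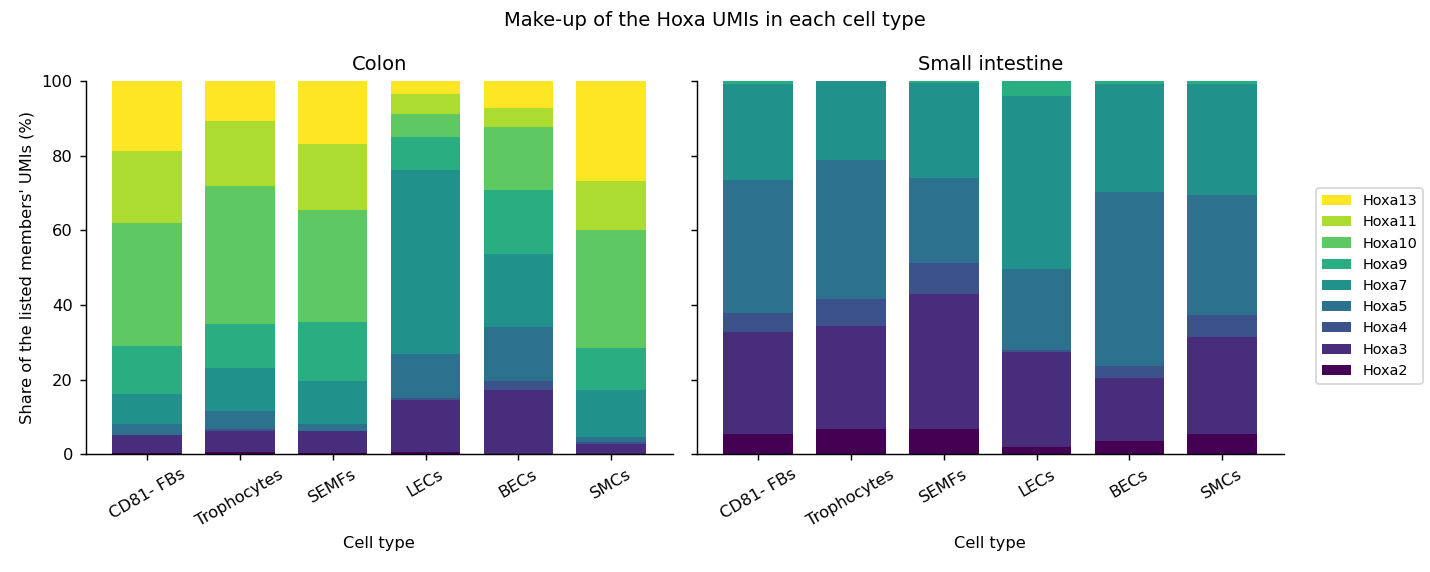
Share of the listed members' UMIs (%) held by each Hoxa gene in each cell type, colon left (9 genes listed) and small intestine right (6 genes listed). Hoxa9 to Hoxa13 make up 84.0% of the UMIs of colon CD81- FBs and 23.8% of those of colon LECs, where Hoxa7 alone makes up 49.4%.

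The same tissue difference was then read within each label. In CD81- FBs, 4 of 6 shared members were called lower in the colon (11.4% of all genes) and 1 higher (9.48%). Hoxa2 had a log2 ratio of -2.86, Hoxa3 of -1.28, Hoxa4 of -4.23, Hoxa5 of -2.37 and Hoxa9 of 5.29. SEMFs had the same counts, 4 lower (15.8%) and 1 higher (8.28%). The lowest ratio was that of Hoxa4, which had 0 UMIs in the colon and 62 in the small intestine. With 3 UMIs in place of 0 it was 23.6-fold lower (log2 -4.56), and its interval reached -4.22. Hoxa9 had 289 UMIs in colon SEMFs and 3 in small intestinal SEMFs, the latter all in 1 cell, a ratio of 6.40 (4.84 to 8.69).

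Trophocytes had the same signs for Hoxa2 to Hoxa5 and Hoxa9, with ratios nearer to 0 for Hoxa2 to Hoxa5, a difference between labels that was not tested. There 3 of 6 members were called lower in the colon (8.33%) and 1 higher (8.36%). Hoxa5 had 5.497 CPM in colon and 13.8 CPM in small intestinal trophocytes, a log2 ratio of -1.33 (-1.89 to -0.80), and Hoxa3 had -0.73 (-1.28 to -0.22), which is under 2-fold. Hoxa9 had 85 UMIs in colon trophocytes and 0 in the 1913 small intestinal ones. With 3 UMIs in place of 0 it was 66.9-fold higher in the colon (log2 6.06, interval from 5.73). With the colon cells limited to those with Xist or to those with Y-linked UMIs, 1 of the 6 members was called lower.

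SMCs had ratios of the same sign as the fibroblasts for Hoxa3, Hoxa5 and Hoxa9. Hoxa5 had 3.88 CPM in the colon (3 UMIs) and 31.7 CPM in the small intestine (89 UMIs), a log2 ratio of -3.03 (-5.33 to -1.44), Hoxa3 had -1.72 (-3.22 to -0.53) and Hoxa9, with 25 and 2 UMIs, had 5.51 (3.50 to 8.63). In all, 2 of 6 members were called lower (14.6%) and 1 higher (4.98%). The small intestinal cells of this label also carried the CD81- FB markers given above, and their part in these ratios was not tested. When only colon cells with Xist were kept, 1 of the 6 members was called lower and none higher.

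Each endothelial label had 1 member called. In LECs, none of the 5 members with 10 or more UMIs was called lower (10.8%) and Hoxa9 was called higher (6.17%), with 14.1 CPM in the colon (15 UMIs) and 5.18 CPM in the small intestine (58 UMIs), a ratio of 1.44 (0.52 to 2.28). All 12 Hoxa9 UMIs of the colon LECs that could be split lay in the 98 cells with Xist and none in the 53 with Y-linked UMIs, and the call was lost in the latter. The ratios of Hoxa3 (-0.56, -1.22 to 0.03) and Hoxa5 (-0.60, -1.34 to 0.05) in LECs had intervals that reached 0, so a difference was not detectable at this depth. The Hoxa5 interval in LECs lay wholly above that in CD81- FBs (-2.63 to -2.11), but the difference itself was not tested. Hoxa7 was slightly higher in colon LECs, 0.39 (0.05 to 0.72). In BECs, with 53 colon cells, 1 of 3 members tested was called lower (9.08%), Hoxa5 with 6 and 116 UMIs and a ratio of -1.25 (-2.73 to -0.08), and none higher (6.07%). That call was lost under 5 of the processing alternatives. Hoxa9 in BECs, with 7 and 2 UMIs, had fewer than the 10 UMIs needed for a call. Its ratio was 4.83 (2.44 to 8.13). The fibroblast genes Dcn, Col1a1, Col1a2 and Lum stood at up to 10.6% of their fibroblast level in colon LECs and 25.6% in colon BECs. In the small intestine they reached 2.67% and 1.32%. The part of free fibroblast RNA in these endothelial ratios was not tested.

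**Figure D3:**
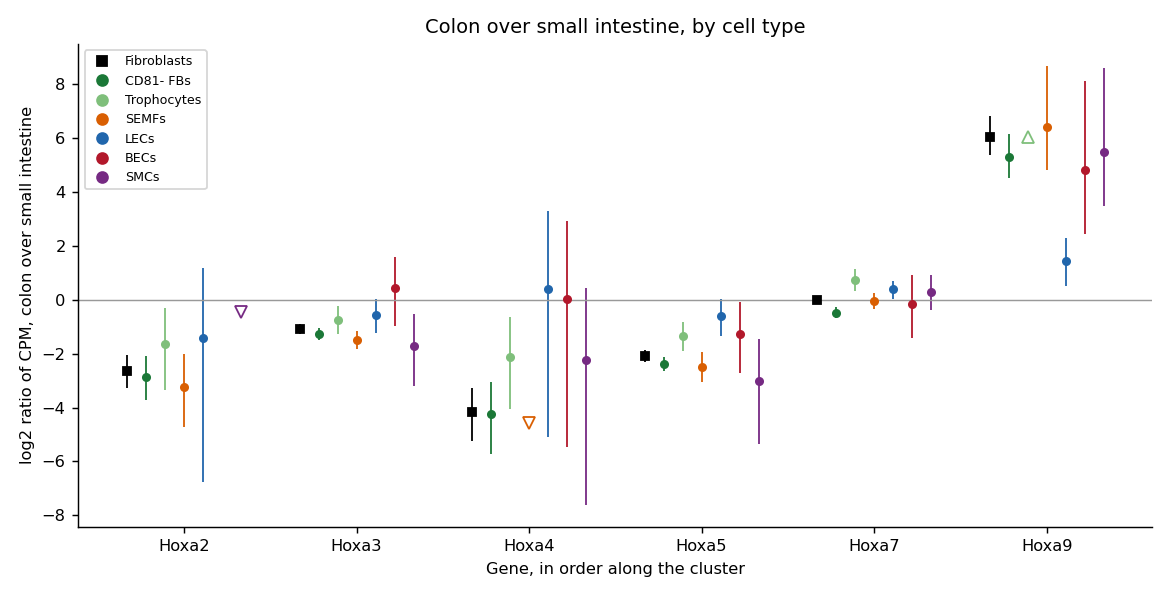
Log2 ratio of CPM, colon over small intestine, for the 6 members listed in both tables, in pooled fibroblasts (squares) and in each of the 6 cell types (circles). Bars are exact 95% intervals, and open triangles are values with 3 UMIs in place of 0 where 1 library had 0 UMIs. Hoxa9 is above 0 in every type shown, with LECs (1.44) lowest, and Hoxa2 to Hoxa5 are below 0 in the 3 fibroblast types.

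Within each library, trophocytes held less Hoxa RNA than the other fibroblast labels. In the small intestine trophocytes were the lowest fibroblasts for 6 of 6 members, while none was called higher than in CD81- FBs (5.56%) and 4 of 6 were called lower (10.3%): Hoxa3 (-1.24, -1.52 to -0.98), Hoxa5 (-1.19, -1.42 to -0.96), Hoxa7 (-1.53, -1.84 to -1.24) and Hoxa9 (0 against 14 UMIs). In the colon trophocytes were lowest for 6 of 9 members, and 3 of 9 were called lower than in CD81- FBs (9.52%) and none higher (6.65%). These 3 were Hoxa9 (13.3 against 27.1 CPM, log2 -1.02, -1.37 to -0.70), Hoxa11 (19.6 against 40.0 CPM, -1.03, -1.31 to -0.76) and Hoxa13 (11.9 against 38.7 CPM, -1.70, -2.05 to -1.36). Hoxa9 and Hoxa11 lay close to the 2-fold line, and with every cell weighted equally only 1 of the 9 was called. Hoxa10 differed less, with 41.6 against 68.3 CPM (-0.72, -0.91 to -0.53), and for Hoxa5 the interval held 0 (-0.14, -0.72 to 0.40). The difference between trophocytes and CD81- FBs was thus widest at Hoxa13 in the colon. The median gene of this comparison was at -0.10 in the colon and -0.22 in the small intestine. How often trophocytes were the lowest fibroblasts over all genes was not computed. In the small intestine they were also lowest for 5 of 5 listed neighbours of the cluster and 10 of 18 listed chromatin factors. In the colon these counts were 3 of 5 and 6 of 18.

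SEMFs were the highest fibroblasts for 7 of 9 members in the colon and 4 of 6 in the small intestine. The share over all genes was not computed. SEMFs were also highest for 4 of 5 listed neighbours of the cluster and 7 of 18 listed chromatin factors in the colon. In the small intestine these counts were 5 of 5 and 9 of 18. Over CD81- FBs, no colon member passed 2-fold upwards (7.77% of all genes) or downwards (8.48%), but 3 of 8 tested had an interval above 0 at any size (28.1%): Hoxa3 (0.56), Hoxa7 (0.79) and Hoxa9 (0.52). In the small intestine 1 of 6 was called higher (9.29%) and none lower (8.99%). The 1 was Hoxa4, with 9.51 against 4.56 CPM (1.06, 0.57 to 1.54), and its call was lost when mitochondrially encoded and ribosomal protein genes were left out of the totals. The members with a lower value in SEMFs there were Hoxa5, with 25.6 CPM in SEMFs and 31.4 CPM in CD81- FBs (-0.29, -0.55 to -0.04), and Hoxa9, with 3 and 14 UMIs (-0.59, -3.03 to 1.25). Trophocytes were called lower than SEMFs for 5 of 8 members tested in the colon (14.2%) and 4 of 5 in the small intestine (19%), and higher for none in either (11.1% and 10.3%).

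**Figure D4:**
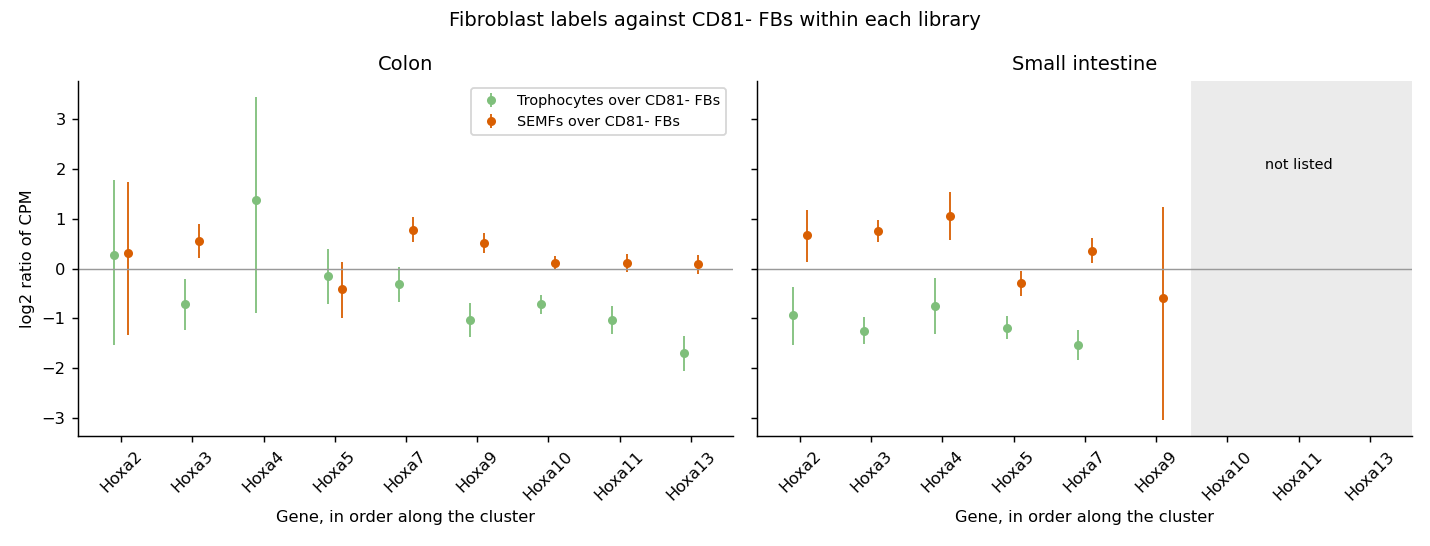
Log2 ratio of CPM of trophocytes (light green) and SEMFs (orange) over CD81- FBs for each Hoxa gene within the colon (left) and the small intestine (right), with exact 95% intervals; comparisons with 0 UMIs in a label are not drawn. Trophocyte points lie below 0 for every member from Hoxa5 to Hoxa13 in the colon, although the intervals of Hoxa5 and Hoxa7 reach 0, and for all 5 members drawn in the small intestine.

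LECs had the highest level of Hoxa7 in both libraries. In the colon Hoxa7 had 79.8 CPM in LECs (63.7 to 98.7), above SMCs (36.3), BECs (29.7), SEMFs (28.0), CD81- FBs (16.2) and trophocytes (13.04), and it was found in 32.7% of LECs. The small intestinal level was 60.9 CPM in LECs (56.4 to 65.6), above BECs (32.8), SMCs (29.6), SEMFs (29.0), CD81- FBs (22.5) and trophocytes (7.79). The step from LECs to the next label had an interval above 0 in both libraries, whereas neighbours among the next 3 labels did not differ beyond their intervals in either. After thinning each cell to 3000 UMIs, which drops 17 colon and 552 small intestinal LECs, Hoxa7 was found in 20.5% and 16.8% of LECs, against 5.34% and 5.61% of fibroblasts.

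Against pooled fibroblasts, 3 of 9 colon members were called higher in LECs (9.19%), Hoxa3 (1.14, 0.48 to 1.73), Hoxa5 (1.72, 0.98 to 2.39) and Hoxa7 (2.15, 1.81 to 2.48), and 3 were called lower (11.6%), Hoxa10 (-2.65), Hoxa11 (-2.14) and Hoxa13 (-2.62). The levels of those last 3 in LECs were 15.9% (7.93 to 28.4), 22.6% (10.3 to 42.9) and 16.2% (5.95 to 35.3) of their fibroblast levels. Their intervals reach the 9.47% to 10.6% at which the 4 fibroblast genes stood in the same cells, although all 3 values lie above it, and the part of free RNA in them was not tested. Hoxa9 stood at 51.9% (29.1 to 85.7), above that range. Colon BECs gave 2 of 9 higher (8.79%), Hoxa3 and Hoxa5 with 7 and 6 UMIs, and 3 lower (6.46%), Hoxa10, Hoxa11 and Hoxa13 with 7, 2 and 3 UMIs. The intervals of Hoxa10 (16.1 to 82.3), Hoxa11 and Hoxa13 as percent of fibroblast level also reached the range of those 4 genes in BECs.

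In small intestinal LECs, Hoxa7 (1.74, 1.59 to 1.89) and Hoxa9 (3.67, 2.87 to 4.54) were called higher than in fibroblasts, 2 of 6 (13.6%), and Hoxa4 lower (-2.71, -3.94 to -1.70), 1 of 6 (20.5%). Hoxa9 stood there at 58 UMIs in 52 cells, more than the 17 in all fibroblasts of the library, which has over 3 times as many UMIs from fibroblasts (41708803) as from LECs (11207713). Hoxa5 was highest in BECs, with 52.9 CPM (43.7 to 63.5), called higher than in fibroblasts (1.13, 0.84 to 1.41), 1 of 6 (13.3%), with none called lower (16.5%). The next label, SMCs, had 31.7 CPM, and SMCs, CD81- FBs, LECs and SEMFs did not differ from their neighbours in the order beyond their intervals. For Hoxa5 in LECs 1 cell held 37 of the 320 UMIs, and for Hoxa3 1 cell held 14 of 373. All 6 members were above the range of those 4 fibroblast genes in both endothelial labels of the small intestine.

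**Figure D5:**
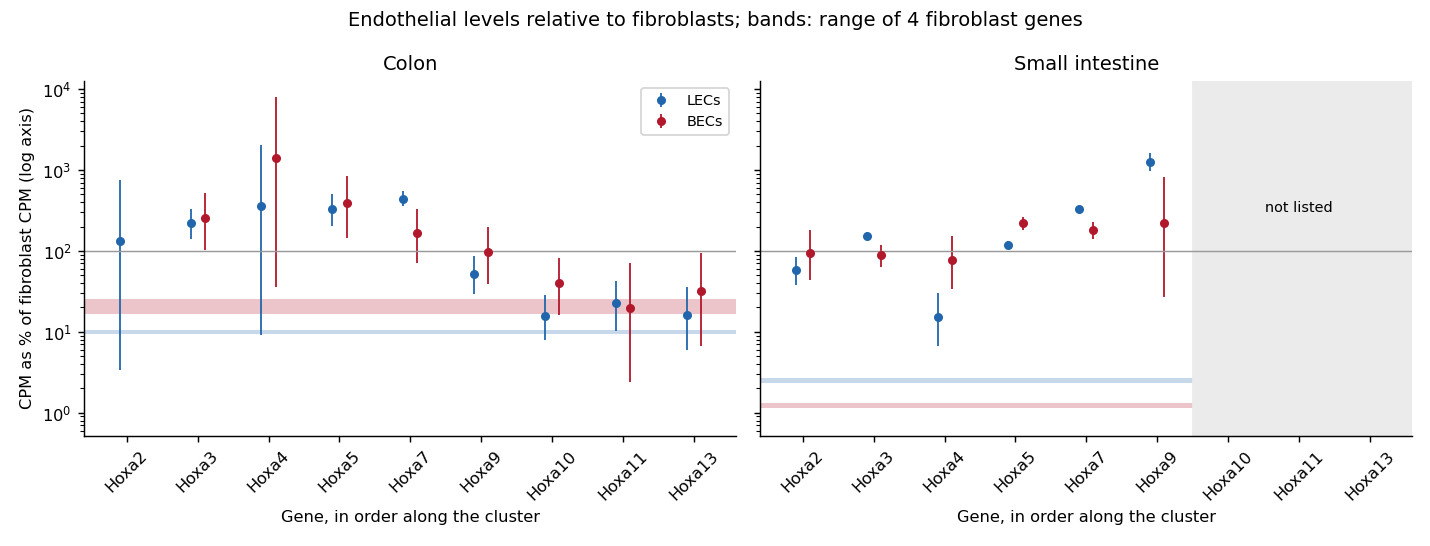
CPM of each Hoxa gene in LECs (blue) and BECs (red) as a percent of its CPM in pooled fibroblasts of the same library, on a log axis, with Poisson 95% intervals of the endothelial counts; the bands show the range of 4 fibroblast genes in the same cells. Hoxa2 in colon BECs (0 UMIs) is not drawn. In the colon the points from Hoxa10 to Hoxa13 have intervals that reach their bands, and in the small intestine all points lie above the bands.

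Smooth muscle of the colon held the highest level of the member at the 5′ end. Hoxa13 had 76.4 CPM in SMCs (58.2 to 98.5; 59 UMIs in 48 of 125 cells), then 41.1 in SEMFs, 38.7 in CD81- FBs, 11.9 in trophocytes, 11.1 in BECs and 5.63 in LECs. Over pooled fibroblasts its ratio was 1.14 (0.74 to 1.51), and with Hoxa7 (1.01, 0.41 to 1.56) it made 2 of 9 members called higher in SMCs (5.25%), with none called lower (7.09%). Hoxa10 had 90.6 CPM in SMCs, 74.0 in SEMFs and 68.3 in CD81- FBs, and Hoxa11 had 37.6, 43.6 and 40.0 CPM. Neighbours among those 3 labels did not differ beyond their intervals for either gene, but Hoxa10 in SMCs over pooled fibroblasts was 0.48 (0.12 to 0.82). In the small intestine no member was called higher (4.85%) or lower (5.19%) in SMCs than in fibroblasts.

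Pooled colon fibroblasts were also compared between cells with Xist and cells with Y-linked UMIs. The log2 ratio of Xist to Y-linked cells had an interval that held 0 for 8 of 9 members. For Hoxa9 it was -0.24 (-0.45 to -0.04), with 25.4 CPM in the Xist cells and 30.1 CPM in the others. Within the 3 fibroblast labels, the interval left out 0 only for Hoxa10 in CD81- FBs and Hoxa9 in SEMFs. Hoxa10 was at -0.27 (-0.43 to -0.11) in CD81- FBs and 0.42 (-0.01 to 0.85) in trophocytes. Hoxa9 was at -0.50 (-0.88 to -0.12) in SEMFs. The difference between labels was not tested. Among cells thinned to 3000 UMIs, 57.1% of colon fibroblasts had no member detected, 32.5% had 1 and 8.78% had 2. Of the small intestinal fibroblasts 80.3% had none.

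After the same thinning, pairs of members were found in the same CD81- FB of the colon about as often as the product of their shares gives. The median ratio was 1.04 over the 17 pairs for which that product gave at least 5 cells. The range was from 0.461 for Hoxa3 with Hoxa13 (5 cells) to 2.17 for Hoxa3 with Hoxa9 (16 cells). Neighbours in the cluster gave 1.89 for Hoxa7 with Hoxa9 (23 cells), 1.54 for Hoxa9 with Hoxa10 (75 cells), 1.19 for Hoxa10 with Hoxa11 (82 cells) and 0.842 for Hoxa11 with Hoxa13 (33 cells). In small intestinal CD81- FBs, Hoxa3 and Hoxa5 were found together in 30 cells (1.86), and Hoxa3 and Hoxa7 in 6 (0.481). These are counts in sparse data and are given as a description; the models of Hoxa3 and Hoxa5 overlap, and the part of that in their joint detection was not tested.

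Other genes tied to the cluster were counted by lists chosen with earlier results of these data known. Their calls in pooled fibroblasts stand beside 9.82% of all genes called lower in the colon and 9.61% called higher. Among partner factors, which bind DNA together with Hox proteins, Pbx3 (-1.99), Meis1 (-1.87) and Meis2 (-1.31) were called lower in pooled colon fibroblasts. Within labels, Meis1 was called lower in all 3 fibroblast labels. Pbx3 was not called in SEMFs (-0.87), and Meis2 was not called in CD81- FBs (-0.996) or trophocytes (-0.77). In the pool, Pbx2 (-0.06), Pbx4 (0.54), Meis3 (0.22), Pknox1 (-0.04) and Pknox2 (-0.08) were not called, beside a median of -0.17 for all genes. Of 6 noncoding RNAs of the cluster, 3 were in both tables: Hoxaas2 (-3.59) and Hoxaas3 (-1.59), which lie opposite the Hoxa3 to Hoxa7 stretch, were called lower, and Hotairm1, beyond Hoxa2, had -0.76 (-0.90 to -0.63). Hottip, beyond Hoxa13, was listed for the colon alone, with 20 UMIs in its fibroblasts. Of the 5 listed neighbours outside the cluster, Skap2 on the Hoxa2 side had -2.42 and Jazf1 on the Hoxa13 side -1.08, both called lower, while Snx10 (-0.93), Hibadh (-0.28) and Tax1bp1 (0.08) were not called.

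Among 6 retinoic acid receptors, which respond to the signal that switches on 3′ Hox genes in the embryo, Rarg (1.57) and Rxrg (2.85, with 20 and 3 UMIs) were called higher and Rarb (-1.57) lower. Of 10 paralogs from the other Hox clusters in both tables, 6 were called lower (9.82% of all genes) and 2 higher (9.61%). Those lower were Hoxb2, Hoxb3, Hoxb4, Hoxb5, Hoxb7 and Hoxd3, from -3.32 for Hoxb7 to -1.32 for Hoxd3. Those higher were Hoxd9 at 2.89 and Hoxd10 at 6.97. The value of Hoxd10 uses 3 UMIs in place of 0 in the small intestine, and its interval starts at 6.66. Hoxb7 at -3.32 stood apart from its paralog Hoxa7 at -0.02. These pooled values did not hold in each fibroblast label. In trophocytes 0 of the 10 were called lower (8.33% of all genes) and 3 higher (8.36%), against 5 lower in CD81- FBs (11.4%) and 7 in SEMFs (15.8%). Some of the 10 had fewer than the 10 UMIs needed for a call. These were Hoxb9, in the pool and in every fibroblast label, and Hoxd4 in trophocytes (9 and 0 UMIs). The shares of all genes cover only genes with enough UMIs. Hoxb2 was at -5.24 in CD81- FBs, -7.44 in SEMFs and -0.58 in trophocytes, which held 175 of its 201 UMIs in colon fibroblasts. The difference between labels was not tested.

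Across the 6 colon profiles, Hoxa10, Hoxa11 and Hoxa13 followed one another, with Pearson correlations of log2(CPM + 1) from 0.889 to 0.938, and Hoxa5 ran against them, from -0.937 to -0.805. The genes with the most similar profile were Top3b for Hoxa3 (0.975), Sp110 for Hoxa5 (0.975) and Oip5os1 for Hoxa7 (0.968) over 12 profiles, and Ufsp2 for Hoxa10 (0.998), Hmgn2 for Hoxa11 (0.998) and Tnik for Hoxa13 (0.994) over 6. For Hoxa2, Hoxa4 and Hoxa9 they were Slc9a8 (0.962), Rnpc3 (0.861) and AY036118 (0.960) over 12 profiles. The profiles share library and depth within a tissue, so these values describe likeness over few points and nothing else.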

How the data were processed

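The authors deposited, per library, raw UMI counts of each gene in each cell, natural log values made from them, and a label for each cell; per the submitters' processing notes, Cell Ranger 7.1.0, Seurat 4 and the mm10 build were used. In a check, each natural log value deposited by the authors equalled ln(1 + UMIs × 10000 / total UMIs of the cell). The raw counts gave all main values: UMIs were summed per label and library and expressed as CPM with exact Poisson intervals, shares with Clopper-Pearson intervals and ratios with exact conditional binomial intervals, all at 95% (scipy 1.17.1, numpy 2.4.6). Where a group had 0 UMIs, 3 were used for the ratio, which makes it an approximate bound, and the exact interval can reach nearer to 0. A gene was called at 2-fold or more with an interval without 0, among genes with at least 10 UMIs in the comparison. Labels with at least 50 cells were compared; colon capillary, arterial and venous labels were pooled as BECs, and 2 spellings of a fibroblast label were joined. Doublets were not removed. Gene models came from GENCODE M21 and promoters from RefSeq GRCm38.p6. The members and lists were chosen with earlier results of these data known, and some listed genes are not reported here. Named besides the members and lists was the gene with the highest Pearson correlation to each member over the type profiles, out of the 3 that the rule selects, among genes reaching 10 CPM. The median gene of a type was taken over genes with at least 100 UMIs, and shares were also computed with each cell thinned to 3000 UMIs. Precision was limited by depth, from 269665 UMIs in colon BECs to 41708803 in small intestinal fibroblasts. Alternatives weighted cells equally, changed the totals, left out cells by depth or by the cell with the most UMIs, split colon cells by Xist, weighted labels equally, or scaled to the median gene. The scripts were tested on simulated counts.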

Additional observations from a re-analysis of the deposited data

Results flagged for a closer look

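Hoxa7 moved in opposite directions between the tissues in different cell types. Its log2 ratio of colon to small intestine was 0.74 in trophocytes and 0.39 in LECs, both with intervals above 0, and -0.47 in CD81- FBs, with an interval below 0. The difference between these types was not tested.

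Labels with too few cells to be compared also held Hoxa UMIs. The 8 colon cells labelled pericytes had 5 UMIs of Hoxa10, and the 4 colon cells labelled proliferating also had 5. The 24 small intestinal cells labelled proliferating had 5 UMIs of Hoxa3, 7 of Hoxa5 and 11 of Hoxa7. These counts exceed the 3 used in place of a count of 0, and no comparison was made with them.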

How the results depend on the processing

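No alternative changed the sign of a ratio whose interval excludes 0. In 16 of 586 recomputed ratios the sign differed from a main value whose interval holds 0, among them 4 of Hoxa7 in pooled fibroblasts. A ratio was counted as kept if its new value lay within the main interval, so a change of sign inside it counts as kept. A tissue ratio that was a lower bound was kept if it stayed a bound. Counts of members were kept if equal or little changed, and the fall from 4 to 3 called lower in pooled fibroblasts was among those kept. By this rule, 311 of 322 log2 ratios of colon to small intestine and 256 of 264 ratios between fibroblast labels were kept. The same held for 148 of 162 counts of members. Thinning to 3000 UMIs moved 60 of 90 shares out of their main interval. The Hoxa3 ratio in pooled fibroblasts (-1.09) was -1.31 with every cell weighted equally, -1.29 with the 3 labels given equal weight, -0.91 relative to the median gene and -0.84 with Y-linked colon cells only. The Hoxa7 ratio became 0.15 relative to the median gene. The colon centre (9.77) was 9.70 with Y-linked cells only, 9.66 with equal labels and 6.96 over the shared members, the last because 3 genes are left out.

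With colon cells limited to those with Y-linked UMIs, members called lower in colon trophocytes went from 3 to 1, members called higher in LECs from 1 to 0, members called lower in BECs from 1 to 0 and colon members highest in an endothelial type from 5 to 3. With Xist cells only, the trophocyte count was 1, the BEC count 0, and the SMC counts 0 higher (from 1) and 1 lower (from 2); these splits hold fewer cells. The BEC count was also 0 with cells of at least 3000 UMIs, without the 5% of cells with the most UMIs, and relative to the median gene. Leaving out, per gene and type, the cell richest in it, 3 colon members were highest in an endothelial type. Of the 5 in the main result, Hoxa2 and Hoxa4 rested on 1 UMI in that type. For Hoxa3 the step from LECs to SEMFs had an interval that held 0 (0.62, -0.08 to 1.27). The share over all genes was not computed. With cells weighted equally, 1 member in place of 3 was called lower in colon trophocytes than in CD81- FBs; the cause was not tested. With mitochondrially encoded and ribosomal protein genes left out of the totals, 0 members in place of 1 were called higher in small intestinal SEMFs than in CD81- FBs.

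No paired analysis was possible because each tissue had 1 library. Differences between tissues therefore cannot be told apart from differences between libraries, digestion times or animals, and Hoxa2 and Hoxa4 in the colon and all members in colon BECs rest on few UMIs.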
